A study of Arabidopsis thaliana with 4 samples.

Results

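The genes described here are the Arabidopsis thaliana genes for the histone variants H3.1 and H3.3. They were given as a list of 5 H3.1 loci and 3 H3.3 loci and were matched by locus identifier, which found all 8 among the 33341 genes counted. Messenger RNA was sequenced from intact seedlings of the mutants atprmt3 and rps2a2b, with 1 library each, and of Col, the wild type, with 2 libraries. The mutant atprmt3 is named for the protein arginine methyltransferase gene PRMT3, and rps2a2b for loci encoding RPS2, a protein of the small ribosomal subunit. Per its title, the study asks how PRMT3, together with RPS2B, governs pre-ribosome assembly and limits nucleolar stress. All seedlings were 12 days old and grew on MS medium with 1% sucrose at 22 °C, in 16 h of light and 8 h of darkness. The labels describe neither the mutant alleles nor a separate culture for each library.

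Histone H3 is the core histone whose tail carries many of the regulatory chromatin marks. H3.1 is the replicative form. Its genes are transcribed mainly in S phase, and the chaperone CAF-1 places the protein on newly copied DNA, so its mRNA is a common sign of replicating cells in meristems and young leaves. H3.3 is the replacement form, made throughout the cell cycle and in cells that no longer divide, and it is placed by the HIRA complex and ATRX, mostly over transcribed genes. Plant histone mRNAs carry poly(A) tails, so selection for mRNA retains them.

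The coding sequences show how the classes are separated. Each of the 8 genes has a coding sequence of 411 bases with 135 codons between start and stop. For AT4G40030, which has 2 annotated coding sequences, the one of this length was used. The 5 H3.1 genes encode the same protein, and so do the 3 H3.3 genes, because at 0 codons did members of a class differ in residue. The classes differ at 4 codons, numbered 31, 41, 87 and 90 after the start codon. The DNA is far more varied than the protein, with 80.3% to 89.5% of coding bases identical between pairs of H3.1 genes, 78.6% to 88.8% between pairs of H3.3 genes and 74.0% to 80.3% between classes. The stretch from codon 29 to codon 43 is printed first, 5′ to 3′, because it holds codons 31 and 41, in capitals. Residue 31 is where the methyltransferases ATXR5 and ATXR6 and the repair factor TSK tell H3.1 from H3.3. The first 5 lines are the H3.1 genes and the last 3 the H3.3 genes, read from the RefSeq TAIR10.1 genome.
AT5G65360: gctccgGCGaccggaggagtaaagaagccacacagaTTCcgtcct
AT1G09200: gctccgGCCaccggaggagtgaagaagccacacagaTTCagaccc
AT3G27360: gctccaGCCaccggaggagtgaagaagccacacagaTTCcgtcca
AT5G10400: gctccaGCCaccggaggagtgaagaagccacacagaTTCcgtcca
AT5G10390: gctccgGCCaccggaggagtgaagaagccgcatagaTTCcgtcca
AT4G40030: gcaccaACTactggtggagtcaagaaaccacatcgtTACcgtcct
AT4G40040: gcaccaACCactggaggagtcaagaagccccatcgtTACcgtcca
AT5G10980: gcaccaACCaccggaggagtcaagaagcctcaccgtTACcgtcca
The stretch from codon 85 to codon 92 follows in the same order, with codons 87 and 90 in capitals, as it holds the remaining differences.
AT5G65360: cagagcAGCgccgtcGCAgcactt
AT1G09200: cagagcAGTgccgtcGCCgctctt
AT3G27360: cagagtAGTgcagtcGCAgctctt
AT5G10400: cagagcAGTgccgtcGCAgctctt
AT5G10390: cagagcAGTgctgttGCTgcttta
AT4G40030: cagagcCATgctgtcTTAgctctc
AT4G40040: cagagcCATgctgtgCTTgcactc
AT5G10980: cagagtCACgcggtgTTAgctctt
In both stretches the capital codons separate the H3.1 lines from the H3.3 lines, while the lower-case letters differ within a class only in bases that leave the residue the same.

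All 8 genes lie on the minus strand. On TAIR10.1 the H3.1 genes are AT5G65360 (chr5:26119859-26120581), AT1G09200 (chr1:2971571-2972334), AT3G27360 (chr3:10129105-10129937), AT5G10400 (chr5:3270172-3270957) and AT5G10390 (chr5:3268847-3269594). The H3.3 genes are AT4G40030 (chr4:18555532-18557106), AT4G40040 (chr4:18557149-18558945) and AT5G10980 (chr5:3472405-3473570). Each H3.1 gene is annotated with 1 exon, whereas AT4G40030, AT4G40040 and AT5G10980 have 4, 5 and 3 exons in their longest transcripts. AT5G10390 and AT5G10400 are neighbours separated by 577 bases, and AT4G40030 and AT4G40040 by 42 bases. Of the stretches of 50 bases in each transcript, 98.6% to 100% occur once in the genome, so reads of that length could be assigned to single genes. The exception in layout is AT3G27360, which shares 328 of its 833 transcript bases with AT3G27380 on the same strand. Reads there fit both genes, and reads assigned to several genes were left out. Its counts, and its level per kilobase of the whole transcript, may therefore be too low.

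Promoters were examined for letters known from plant histone promoters. The window ran from 250 bases before to 50 bases after each annotated gene start, and both strands were searched. The octamer CGCGGATC was found before 3 of the 5 H3.1 genes and 1 of the 3 H3.3 genes, and 0.146% of 27443 gene windows of the same size hold it. The hexamer ACGTCA was found before 2 of the 5 H3.1 genes and 1 of the 3 H3.3 genes, against 9.19% of all windows. No member held TTTCCCGC, an E2F-like site found in 0.798% of windows, or AAACCCTA, the telo-box found in 6.22%. No matches of different motifs overlapped. The 5 members below are printed because they hold the octamer or, in AT5G10980, more than 1 hexamer. Each line gives the 250 bases before the gene start on the gene's strand, with motif matches in capitals. The windows are chr5:26120582-26120831, chr1:2972335-2972584, chr5:3270958-3271207, chr4:18558946-18559195 and chr5:3473571-3473820, all on the minus strand of TAIR10.1.
AT5G65360: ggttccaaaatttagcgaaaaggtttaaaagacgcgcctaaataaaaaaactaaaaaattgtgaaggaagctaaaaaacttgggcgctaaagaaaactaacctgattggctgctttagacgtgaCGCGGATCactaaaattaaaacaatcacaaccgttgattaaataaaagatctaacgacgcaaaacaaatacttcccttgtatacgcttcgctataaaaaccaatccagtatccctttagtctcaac
AT1G09200: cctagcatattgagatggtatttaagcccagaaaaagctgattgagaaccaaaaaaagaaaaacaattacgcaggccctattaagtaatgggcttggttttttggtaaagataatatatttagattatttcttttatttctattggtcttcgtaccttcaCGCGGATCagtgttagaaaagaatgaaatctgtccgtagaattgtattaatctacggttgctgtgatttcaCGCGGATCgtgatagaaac
AT5G10400: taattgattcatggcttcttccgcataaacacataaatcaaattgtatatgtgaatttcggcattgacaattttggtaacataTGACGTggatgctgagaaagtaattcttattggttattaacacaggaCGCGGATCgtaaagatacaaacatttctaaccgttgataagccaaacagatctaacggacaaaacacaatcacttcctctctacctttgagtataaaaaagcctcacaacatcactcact
AT4G40040: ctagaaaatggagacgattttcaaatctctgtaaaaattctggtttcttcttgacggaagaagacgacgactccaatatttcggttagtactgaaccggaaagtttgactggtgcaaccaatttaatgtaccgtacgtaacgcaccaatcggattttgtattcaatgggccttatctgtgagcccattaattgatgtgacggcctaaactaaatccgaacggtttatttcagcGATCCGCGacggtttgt
AT5G10980: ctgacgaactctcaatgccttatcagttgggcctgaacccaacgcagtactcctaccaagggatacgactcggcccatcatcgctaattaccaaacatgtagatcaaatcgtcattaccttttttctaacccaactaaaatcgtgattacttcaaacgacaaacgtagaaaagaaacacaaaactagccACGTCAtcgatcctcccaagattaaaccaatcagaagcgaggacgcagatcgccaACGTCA
AT1G09200 held the octamer at 90 and at 19 bases before its start. AT5G65360 and AT5G10400 held it once, at 126 and 120 bases, and AT5G10400 also held a hexamer on the opposite strand at 167 bases. In AT4G40040 the octamer lay on the opposite strand at 17 bases. AT5G10980 held hexamers at 61 and 6 bases, and AT3G27360 held one at 186 bases. AT5G10390 and AT4G40030 held neither, which says only that these letters are not in their windows. Most of the AT4G40030 window lies inside its neighbour AT4G40040. The map of motif matches shows these positions.

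**Figure D1:**
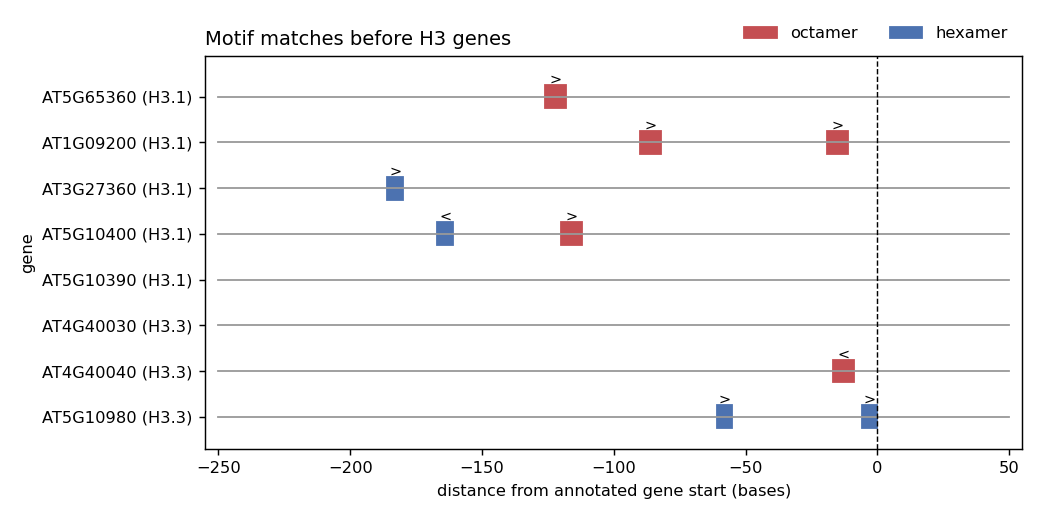
Matches of the octamer (red) and the hexamer (blue) in the windows of the 8 H3 genes, by distance from the annotated gene start in bases. Arrowheads give the strand relative to the gene, and 4 of the 8 windows hold an octamer.

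Total counts on genes were 18650053 in atprmt3, 15194770 in rps2a2b, and 15646735 and 15637192 in the Col libraries. Set against each other over the 20569 genes whose counts summed to 10 or more, the Col libraries gave a chi-square of 0.990 per gene, where counting noise alone gives about 1. For the 395 most abundant genes, with 10000 counts or more, the value was 1.37. The Col libraries therefore agree within sampling noise for most genes and may be a single library sequenced or deposited more than once. They were counted as 1 sample, so a level above both of them is above 1 sample, each genotype has n = 1 and no difference below has a replicate check. PRMT3 (AT3G12270) had 132 counts in atprmt3 and 315 in rps2a2b, against 237 and 254 in the Col libraries. XW6 (AT1G58380), the RPS2A locus in standard nomenclature, had 580 counts in atprmt3 and 167 in rps2a2b, against 334 and 318 in the Col libraries. These counts are not scaled for depth. In the scaled units (CPM) defined below, PRMT3 stood at 6.99 in atprmt3 and 19.6 in rps2a2b, against 15.7 and 16.8 in Col. XW6 stood at 30.7 and 10.4, against 22.1 and 21.1. In whole seedlings, fewer cells of a type and less RNA per cell cannot be told apart.

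Levels are normalised read counts (CPM, counts per 1000000 TMM-scaled reads), and fold changes are ratios of these with the Col libraries summed. Intervals are 95% intervals and cover counting error only. They are exact binomial for fold changes, exact Poisson for levels and normal approximations for changes of the H3.1 to H3.3 ratio. Shares have Wilson intervals, which for levels per kilobase were rescaled from counts with the make-up of each class held fixed. Values after ± are wider standard errors (SE). They multiply the counting variance of a mutant library by 6.01, the chi-square per gene of rps2a2b against atprmt3 where summed counts ran from 10 to 99, and that of the summed Col libraries by 11.02, since both were taken to share their groups of reads. The same chi-square was 8.63 for genes of summed counts from 100 to under 1000 and 21.5 from there to under 10000, and all of these values include true differences of the mutants. The SE is therefore no upper limit and holds no variation between plants.

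The H3.1 genes as a class were higher in both mutants than in Col, while the H3.3 genes as a class stayed near the Col level. Summed over its 5 genes, H3.1 mRNA stood at 211 CPM in atprmt3 and 188 CPM in rps2a2b, against 117 and 114 CPM in the Col libraries. Both mutant libraries lay well above both Col libraries. The log2 fold change was 0.87 ± 0.099 in atprmt3 (interval 0.80 to 0.93) and 0.70 ± 0.10 in rps2a2b (0.63 to 0.77), or 1.82-fold and 1.62-fold. Summed H3.3 mRNA stood at 458 CPM in atprmt3 and 415 CPM in rps2a2b, against 439 and 445 CPM in the Col libraries. Its log2 fold changes were 0.049 ± 0.056 and -0.091 ± 0.060, each within 2 SE of 0 but with counting intervals that leave out 0 (0.010 to 0.088 and -0.13 to -0.048), and the direction in rps2a2b turned with total-count scaling, at 0.041.

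Single H3.1 genes are described from the most to the least abundant in Col. AT5G65360 had 83.2 CPM in atprmt3 and 68.8 CPM in rps2a2b, against 50.7 and 50.4 CPM in the Col libraries. The mutants were above Col in both cases, atprmt3 more so. Its log2 fold change was 0.72 ± 0.15 in atprmt3 and 0.44 ± 0.16 in rps2a2b.

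AT1G09200, whose window holds the octamer at both printed positions, had 80.2 CPM in atprmt3 and 76.2 CPM in rps2a2b, against 41.4 and 39.1 CPM in the Col libraries. The mutant libraries were close to each other and far above both Col libraries. Its log2 fold change was 0.99 ± 0.16 in atprmt3 and 0.92 ± 0.17 in rps2a2b.

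The neighbours AT5G10400 and AT5G10390 were less abundant and differed from Col in the same direction. AT5G10400 had 27.1 CPM in atprmt3 and 26.4 CPM in rps2a2b, against 13.8 and 12.6 CPM in the Col libraries. Its log2 fold change was 1.04 ± 0.29 in atprmt3 and 1.00 ± 0.29 in rps2a2b, at the 2-fold line. AT5G10390, with none of the 4 motifs in its window, had 17.1 CPM in atprmt3 and 14.2 CPM in rps2a2b, against 9.33 and 8.42 CPM in the Col libraries. Again both mutants lay above both Col libraries. Its log2 fold change was 0.95 ± 0.35 in atprmt3 and 0.68 ± 0.37 in rps2a2b.

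AT3G27360 was the weakest member and the exception. It had 58 counts in atprmt3 and 31 in rps2a2b, against 33 and 46 in the Col libraries, or 3.07 and 1.93 CPM against 2.18 and 3.05 CPM. The mutant and Col libraries overlapped. Its log2 fold change was 0.23 (interval -0.28 to 0.74) in atprmt3 and -0.44 (-1.09 to 0.18) in rps2a2b, so a difference was not detectable at this depth. This is also the gene whose transcript is partly shared with AT3G27380.

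Among the H3.3 genes, the pair on chromosome 4 carried most of the mRNA and stood at or slightly below Col. AT4G40040 had 236 CPM in atprmt3 and 204 CPM in rps2a2b, against 239 and 241 CPM in the Col libraries. The rps2a2b library was the low one, at a log2 fold change of -0.24 ± 0.084, while atprmt3 stood at -0.024 ± 0.077. AT4G40030 had 129 CPM in atprmt3 and 143 CPM in rps2a2b, against 142 and 149 CPM in the Col libraries. Here atprmt3 was the low library, at -0.18 ± 0.10, and rps2a2b lay between the Col libraries, at -0.022 ± 0.10. With total-count scaling the small values turned, to 0.044 for AT4G40040 in atprmt3 and 0.11 for AT4G40030 in rps2a2b.

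AT5G10980 was the only H3.3 gene that stood above Col in both mutants. It had 92.6 CPM in atprmt3 and 68.8 CPM in rps2a2b, against 58.2 and 55.1 CPM in the Col libraries. Both mutants were above both Col libraries, with atprmt3 highest. Its log2 fold change was 0.71 ± 0.14 in atprmt3 and 0.28 ± 0.16 in rps2a2b. It encodes the same protein as the chromosome 4 pair.

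**Figure D2:**
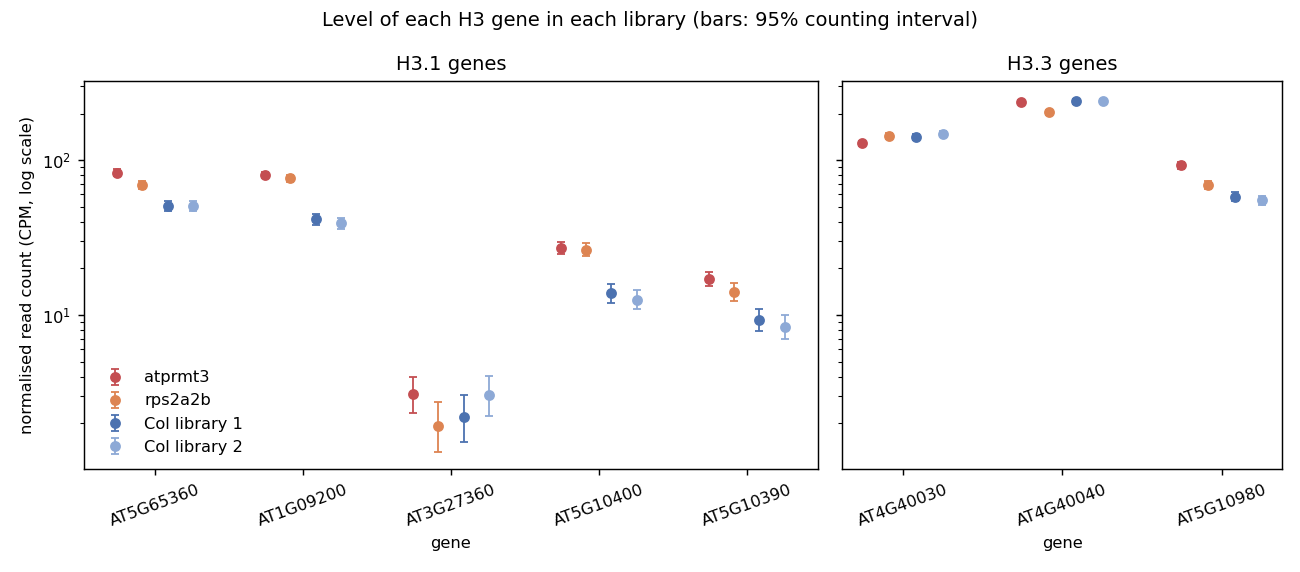
Normalised read count (CPM, log scale) of each H3 gene in the atprmt3, rps2a2b and 2 Col libraries, with 95% counting intervals as bars. Mutant points lie above both Col points for 4 of the 5 H3.1 genes and, among the H3.3 genes, for AT5G10980.

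With 1 sample a genotype, genes were counted past a fold rather than tested. All 8 members passed the low-count filter, which kept 20937 genes. In atprmt3, 1 of 5 H3.1 genes and 0 of 3 H3.3 genes were at least 2-fold higher than in Col, and 9.04% of all genes were. That count for H3.1 was 2 with upper-quartile factors, 3 with total counts or without Col library 1, and 0 without Col library 2. At 1.5-fold, a threshold added after the values had been seen, 4 of 5 H3.1 genes and 1 of 3 H3.3 genes were higher. The shares were 17.3% of all genes and 7.32% of genes averaging 20 CPM or more. AT5G10390, among these 4, and AT3G27360 average less than 20 CPM. None of the 8 was 2-fold lower, against 6.36% of all genes, or 1.5-fold lower, against 13.9%. The median log2 fold change was 0.95 over the H3.1 genes and -0.024 over the H3.3 genes, beside 0.0087 over all genes.

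In rps2a2b, 1 of 5 H3.1 genes and 0 of 3 H3.3 genes were at least 2-fold higher than in Col, and 10% of all genes were. That count for H3.1 was 2 with total counts, and 0 with DESeq2 size factors or without Col library 2. At 1.5-fold, 3 of 5 H3.1 genes and 0 of 3 H3.3 genes were higher, against 18.2% of all genes and 7.1% of genes averaging 20 CPM or more. AT5G10390, among these 3, averages less than 20 CPM. None of the 8 was 2-fold lower, against 6.32% of all genes, or 1.5-fold lower, against 14%. The median was 0.68 over the H3.1 genes and -0.022 over the H3.3 genes, beside 0.0069 over all genes. Both mutants were set against the same Col libraries, so their likeness is not independent.

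**Figure D3:**
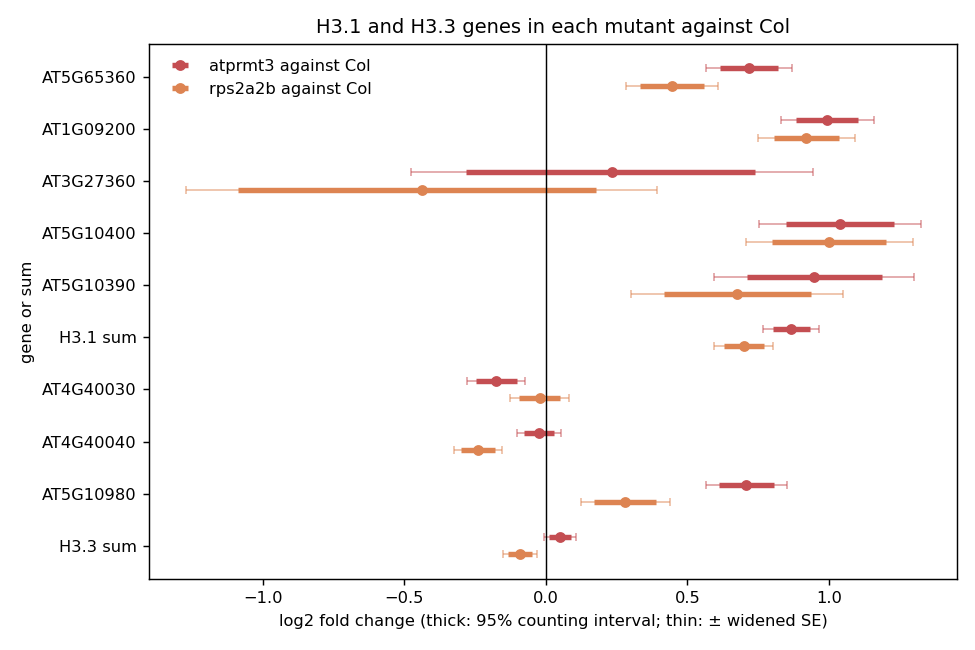
Log2 fold change of each H3 gene and of the class sums in atprmt3 and in rps2a2b against Col, with the 95% counting interval (thick) and the wider SE (thin). The H3.1 sum stands at 0.87 and 0.70 and the H3.3 sum at 0.049 and -0.091.

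The mutants were also set against each other. In rps2a2b relative to atprmt3, the H3.1 sum stood at a log2 value of -0.17 ± 0.085 and the H3.3 sum at -0.14 ± 0.058. Of the 8 genes, 1 was at least 1.5-fold lower, against 9.8% of all genes, and 0 were 1.5-fold higher, against 11.6%. The lower one was AT3G27360, at -0.67 ± 0.79 from 31 and 58 counts. Among well-counted members AT5G10980 differed most, at -0.43 ± 0.14. AT1G09200 and AT5G10400 were near equal in the mutants, at -0.073 ± 0.14 and -0.038 ± 0.23. AT5G65360 and AT5G10390 were lower in rps2a2b at -0.27 ± 0.14 and -0.27 ± 0.31, AT4G40040 stood at -0.22 ± 0.081, and AT4G40030 alone was higher, at 0.15 ± 0.10.

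The balance of the classes does not depend on library scaling, because both are read in the same library. The H3.1 to H3.3 ratio of counts was 0.460 in atprmt3 and 0.452 in rps2a2b, against 0.267 and 0.255 in the Col libraries. This is a log2 change of 0.82 ± 0.11 in atprmt3 (interval 0.74 to 0.89) and 0.79 ± 0.12 in rps2a2b (0.71 to 0.87), or 1.76-fold and 1.73-fold. Between the mutants the ratio changed by -0.028 ± 0.10 (-0.11 to 0.054) in rps2a2b relative to atprmt3. Per kilobase of transcript, H3.1 made up 40.2% of H3.1 plus H3.3 mRNA in atprmt3 (39.3% to 41.1%, Wilson interval) and 39.8% in rps2a2b (38.8% to 40.8%), against 28.6% and 27.7% in the Col libraries. Replacement H3.3 mRNA remained the larger part in all 4 libraries.

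**Figure D4:**
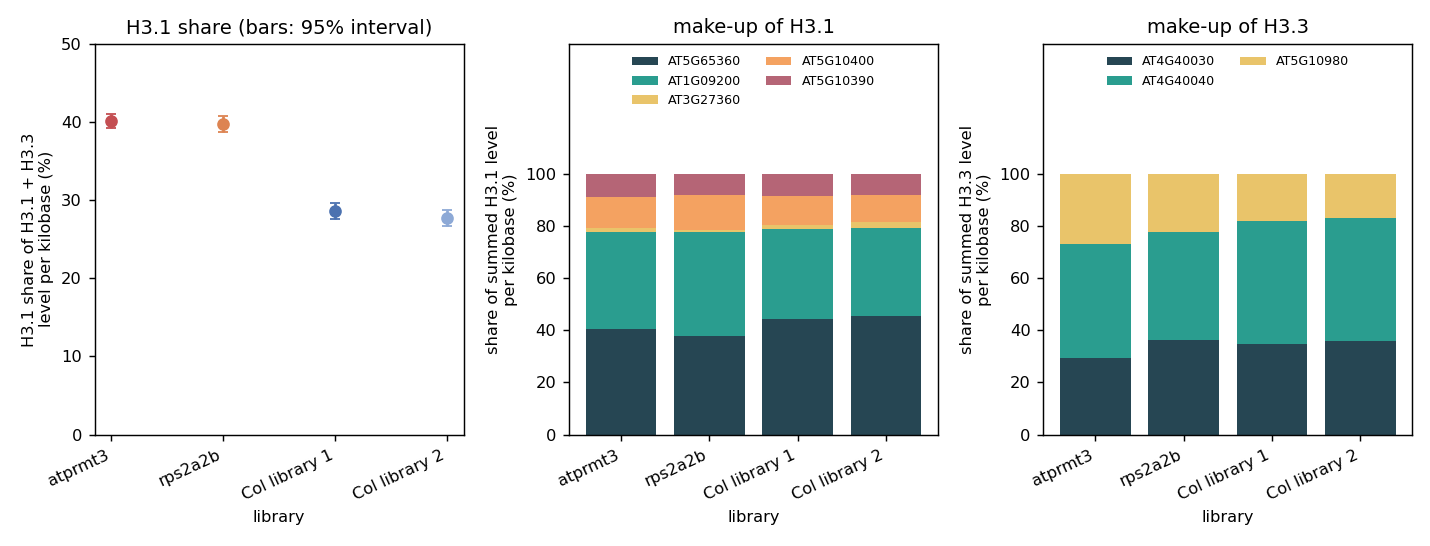
Left, H3.1 share of the summed H3.1 and H3.3 level per kilobase in each library, with 95% intervals, at 40.2% in atprmt3 and 39.8% in rps2a2b and below 29% in both Col libraries. Centre and right, the make-up of each class by gene, in percent of the class level per kilobase.

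Within the H3.1 class AT5G65360 gave a smaller and AT1G09200 a larger share of counts in the mutant libraries than in Col. The intervals of shares within a class cover counting error only. The wider SE was not applied to them, so these shifts are less certain than the intervals make them look. AT5G65360 gave 39.5% of H3.1 counts in atprmt3 (Wilson interval 38.0% to 41.0%) and 36.7% in rps2a2b (35.0% to 38.4%), against 43.8% in Col (42.1% to 45.4%). AT1G09200 gave 38.1% in atprmt3 and 40.6% in rps2a2b, against 34.9% in Col. Within the H3.3 class the share of AT5G10980 was 20.2% in atprmt3 (19.4% to 21.1%) and 16.6% in rps2a2b (15.7% to 17.5%), against 12.8% in Col (12.3% to 13.4%). AT4G40040 gave 51.7%, 49.0% and 54.4% of H3.3 counts in atprmt3, rps2a2b and Col.

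The order of levels, in CPM per kilobase of the longest transcript, put the chromosome 4 pair first in every genotype. In atprmt3 AT4G40040 led at 183, and AT4G40030, AT5G65360, AT5G10980 and AT1G09200 followed at 124, 115, 113 and 105, where neighbours did not differ by more than 2 SE. In rps2a2b AT4G40040 stood at 158 and AT4G40030 at 138, followed by AT1G09200 at 99.7, AT5G65360 at 95.1 and AT5G10980 at 84.1. From AT1G09200 to AT5G10980, neighbours in this order did not differ by that measure. In Col the order was AT4G40040 at 186, AT4G40030 at 140, AT5G65360 at 69.9, AT5G10980 at 69.2, AT1G09200 at 52.7, AT5G10400 at 16.8, AT5G10390 at 12.6 and AT3G27360 at 3.14. There AT5G65360 and AT5G10980 did not differ by more than 2 SE, nor did AT5G10400 and AT5G10390. AT5G10400, AT5G10390 and AT3G27360 came last in this order in atprmt3 and in rps2a2b too. The SE used for these orders came from a comparison of libraries at low counts. It holds no error of comparing genes, such as that of transcript length, so differences past 2 SE are less certain than they look.

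The other H3-like genes were scarce. HTR12, the centromeric H3 of dividing cells, had 112 counts in atprmt3 and 69 in rps2a2b, against 65 in the Col libraries together, at log2 values of 1.46 ± 0.68 and 1.00 ± 0.73. HTR11 had 12 counts in atprmt3 and 2 in rps2a2b, against 2 in the Col libraries together. Its ratio in atprmt3 was 9.61 (counting interval 2.14 to 88.4), a log2 value of 3.26 ± 3.54, which is smaller than its SE. HTR11 and AT5G65360 are separated by 33 bases. AT1G75600, annotated as a histone superfamily protein, had 12 counts in rps2a2b and 0 in the other libraries, so it was at least 7.52-fold higher than in Col, taking 3 counts over the group as the floor and the 12 counts as exact. The exact counting interval of this ratio begins at 5.22. MGH3, a pollen H3.3, and the histone superfamily genes AT1G13370 and AT5G12910 had 0 counts in all 4 libraries, which allows up to 0.159 CPM in atprmt3, 0.187 CPM in rps2a2b and 0.0993 CPM in Col.

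The partner histones of the nucleosome were compared next, as H4, H2A and H2B are also made in S phase. Counts in these lists stand beside the shares of all genes given above, 17.3% 1.5-fold higher in atprmt3 and 18.2% in rps2a2b, and 13.9% and 14% lower. Highest and lowest genes of a list are those by the mean of both mutants. Of 8 H4 genes, 7 were at least 1.5-fold higher in atprmt3 and 4 in rps2a2b, with medians of 0.80 and 0.57 beside the H3.1 medians of 0.95 and 0.68. AT5G59970 stood highest, at 1.10 ± 0.36 and 1.03 ± 0.37, and AT3G46320, with 72.1% of its 50-base stretches unique, at 1.06 ± 0.43 and 0.68 ± 0.47. AT1G07660 was lowest, at -0.18 ± 0.32 and -0.60 ± 0.36, and 69.2% of its 50-base stretches are unique. AT3G53730 came next at 0.70 ± 0.21 and 0.35 ± 0.22.

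Of 9 H2A, H2A.X and H2A.W genes, 5 were 1.5-fold higher in atprmt3 and 2 in rps2a2b, the second near the share of all genes, with medians of 0.60 and 0.43. HTA10, a replicative H2A, was highest at 0.88 ± 0.17 and 1.00 ± 0.17, and GAMMA-H2AX, which marks DNA breaks when phosphorylated, stood at 1.00 ± 0.28 and 0.87 ± 0.29. HTA12 was lowest, at -0.20 ± 0.31 and -0.20 ± 0.33, and RAT5 stood at 0.40 ± 0.31 and -0.49 ± 0.38. Both GAMMA-H2AX and HTA12 overlap a gene on the other strand, over 32.3% and 36.4% of their transcripts, and the strand setting of the counting was not stated.

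Of 9 measured H2B genes among 11, 5 were 1.5-fold higher in atprmt3 and 4 in rps2a2b, with medians of 0.64 and 0.38. HTB11 was at 0.92 ± 0.19 and 0.79 ± 0.20, and AT3G09480, with 39 counts in atprmt3, at 0.92 ± 1.01 and 0.95 ± 1.03. AT3G53650 and HTB9 were lowest, with AT3G53650 at 0.64 ± 0.93 and 0.012 ± 1.06 and HTB9 at 0.30 ± 0.16 and 0.36 ± 0.17. HTB9 overlaps a gene on the other strand over 34.3% of its transcript, and the H1 gene AT1G06760 does over 41.8%. Among 3 measured genes for the replacement variant H2A.Z, HTA8 stood at 1.32 ± 0.59 and 0.78 ± 0.64, HTA11 at 0.53 ± 0.30 and 0.53 ± 0.30, and HTA9 at 0.12 ± 0.14 and -0.23 ± 0.15. For the linker histone H1, AT2G30620 stood at 0.67 ± 0.12 and 0.41 ± 0.12 and AT1G06760 at 0.56 ± 0.096 and 0.27 ± 0.10. HIS1-3, the drought-inducible H1, was lower in both, at -0.84 ± 0.15 and -0.49 ± 0.15.

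The factors that place each variant differed among themselves. Of 6 genes for CAF-1 and for proteins that read H3.1, 2 were 1.5-fold higher in atprmt3 and 1 in rps2a2b, which at this list size is close to the shares of all genes, with medians of 0.26 and 0.29. FAS1, the large CAF-1 subunit, stood at 0.95 ± 0.30 and 0.91 ± 0.31, beside 0.87 and 0.70 for the H3.1 sum. The other CAF-1 subunits were not past this fold, with FAS2 at 0.0062 ± 0.52 and 0.33 ± 0.51 and MSI1 at 0.040 ± 0.22 and -0.28 ± 0.24. ATXR5, an H3.1 methyltransferase, stood at 0.73 ± 0.55 and 0.031 ± 0.63.

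Of 5 genes for H3.3 deposition, 0 were 1.5-fold higher and 1 was 1.5-fold lower in each mutant, which at this list size is near the shares of all genes, with medians of -0.43 in atprmt3 and -0.015 in rps2a2b. The lower one was AT1G21610, annotated as UBN1, a subunit of the HIRA complex, with 517 counts in atprmt3 and 570 in rps2a2b, against 1759 in the Col libraries together. Its log2 values were -1.09 ± 0.19 and -0.72 ± 0.19. CABIN1 (AT4G32820), another subunit, stood at -0.58 ± 0.21 and -0.55 ± 0.21. HIRA itself was near Col, at -0.085 ± 0.28 and -0.0052 ± 0.29, and UBN2 (AT1G77310) stood at 0.090 ± 0.48 and 0.39 ± 0.48.

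Of 8 general histone chaperone genes, 0 were 1.5-fold higher in either mutant, with medians of -0.10 and 0.12. By the mean of both mutants NAP1;3 stood highest, at 0.21 ± 0.15 and 0.30 ± 0.16, and AT4G37210 stood at 0.034 ± 0.26 and 0.37 ± 0.25. By that mean the FACT subunits were lowest. SPT16 stood at -0.30 ± 0.12 and -0.049 ± 0.12, and SSRP1, annotated as HMG, at -0.20 ± 0.15 and -0.13 ± 0.16. Within single mutants SGA2 (AT1G66740) was the extreme, lowest in atprmt3 at -0.54 ± 0.43 and highest in rps2a2b at 0.45 ± 0.37. In rps2a2b relative to atprmt3 it stood at 1.00 ± 0.40.

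Genes of DNA replication and mitosis were set beside H3.1. Of 19 S-phase genes, 7 were 1.5-fold higher in atprmt3 and 12 in rps2a2b, against 17.3% and 18.2% of all genes, with medians of 0.42 and 0.64, and 2 and 3 stood below Col. CDT1A, a replication licensing factor, stood at 1.21 ± 0.33 and 0.93 ± 0.35, and ORC6, of the origin recognition complex, at 0.79 ± 1.15 and 2.21 ± 1.04 from 28 and 64 counts. RNR2A, of ribonucleotide reductase, and the helicase gene PRL were lowest by the mean of both mutants. RNR2A stood at -0.44 ± 0.23 and -0.17 ± 0.23 and PRL at -0.087 ± 0.23 and -0.14 ± 0.24. Within rps2a2b the lowest was CDT1B, at -0.52 ± 0.56, and it stood at 0.42 ± 0.46 in atprmt3. Of 11 mitotic genes, 9 were 1.5-fold higher in each mutant, with medians of 0.78 and 0.89. The B-type cyclins CYCB1;3 and CYCB1;1 were highest, at 3.66 ± 0.99 and 2.05 ± 0.57 in atprmt3 and at 2.82 ± 1.03 and 1.90 ± 0.59 in rps2a2b. The lowest by the mean of both mutants, CDKB2;2 and CDKB1;1, stood at 0.34 ± 0.39 and 0.22 ± 0.48 in atprmt3 and at 0.037 ± 0.42 and 0.89 ± 0.45 in rps2a2b.

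**Figure D5:**
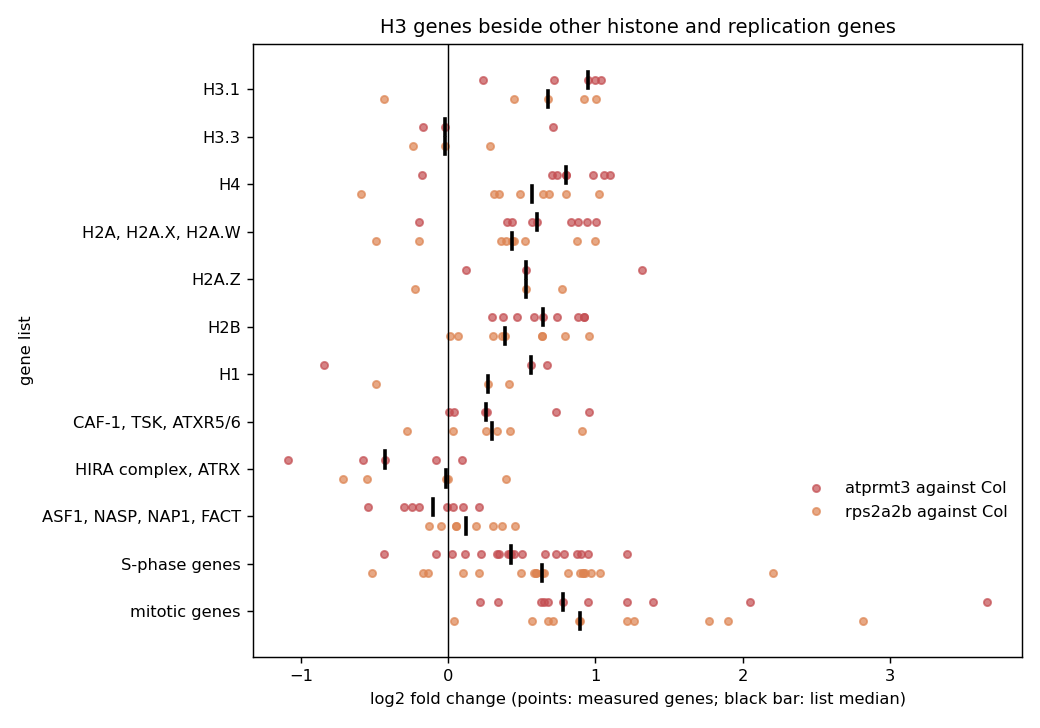
Log2 fold changes in atprmt3 and in rps2a2b against Col for the H3.1 and H3.3 genes and for 10 other lists, with 1 point a measured gene and a black bar at each median. The H3.1 medians are 0.95 and 0.68, those of H4 0.80 and 0.57, and those of H3.3 -0.024 and -0.022.

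The same motifs were counted in the other lists. The octamer, in 0.146% of all windows, was found before 2 of 8 H4 genes, 3 of 9 H2A, H2A.X and H2A.W genes and 1 of 3 H1 genes, and before 0 of 11 H2B genes. The hexamer, in 9.19% of all windows, was found before 9 of the 11 H2B genes. The E2F-like letters, in 0.798% of all windows and in no H3 member, were found before 6 of the 19 S-phase genes.

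Genes outside these lists with a like pattern were sought among 8637 genes averaging 20 CPM or more, by the distance between their pair of log2 fold changes and that of the H3.1 sum. AT4G14320 and AT3G07110, both annotated as ribosomal proteins, lay at distances of 0.022 and 0.035. SAL1, a phosphatase, lay at 0.027, PGIP1, a polygalacturonase inhibitor, at 0.035, and VAG2, a subunit of the vacuolar ATPase, at 0.037. In total, 35 genes lay within 0.1 and 142 within 0.2, so the pattern over 3 genotypes is shared by many genes.

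Tissue markers also differed between the genotypes. The summed level of 4 green shoot genes was 37357 CPM in atprmt3 and 28580 CPM in rps2a2b, against 48427 and 48391 CPM in the Col libraries. The Rubisco genes RBCS1A and RBCS3B stood at 0.064 and 0.26 in atprmt3, above Col, while CAB1 and LHB1B2 of the light-harvesting antenna stood at -0.56 and -0.88, and all 4 were below Col in rps2a2b. The 8 root genes summed to 3027 CPM in atprmt3 and 3778 CPM in rps2a2b, against 2785 and 2793 CPM. PYK10 alone gave 2895 CPM of that sum in atprmt3 and 3636 CPM in rps2a2b, and 3 of the 8 genes were below Col in each mutant, among them SCR at -0.53 and -0.75 and PHO1 at -0.45 and -0.16. For the shoot meristem, 2 of 4 markers were measured, STM and KNAT1, and their sum was 35.6 CPM in atprmt3 and 40.5 CPM in rps2a2b, against 22.8 and 23.3 CPM, while CLV3 and WUS had 0 counts throughout. The 4 seed genes summed to 639 CPM in atprmt3 and 1224 CPM in rps2a2b, against 37.8 and 42.0 CPM. The part of these tissue differences in the H3.1 difference was not tested.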

How the data were processed

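The authors deposited raw counts of reads per gene, with no normalization. Per the submitters' processing notes, TopHat2, HTSeq, edgeR and the TAIR10 build were used, and their versions and the strand setting are not given in the sources used here. Per the labels, libraries were made from mRNA with dUTP strand marking. Reads assigned to no gene or to several made up 1.37% to 1.80% and 2.25% to 3.26% of those counted. Reads without a unique alignment made up 6.7% to 7.2%. All of these were left out, and which genes they came from is not known. Here the filterByExpr function (count minimum 10, total minimum 15) and TMM scaling were applied in edgeR 4.0.16 (R 4.3.3). Sums, intervals and shares were computed in Python 3.11.15 with scipy 1.17.1. Fold changes and binomial intervals of single genes were checked on simulated counts that held counting error only. No p is given for a gene, since each genotype is 1 sample. Reads without molecular identifiers need not be independent molecules, so intervals and floors cover counting error only. Gene models, motifs and sequences came from RefSeq's TAIR10.1, which matched 33056 of 33341 identifiers, and no coordinates were converted. Named genes are the 8 members, the other H3-like genes, up to 2 highest and 2 lowest by mean log2 fold change in each of the other lists (at least 50 summed counts), and the 5 genes nearest to the H3.1 sum. CDT1B and SGA2 were added because they were extremes of their lists within a single mutant. The variance factor behind the wider SE, the members and the lists were chosen with earlier results of these data known. Alternatives were DESeq2 1.42.0 size factors, upper-quartile and total-count scaling, no filter, each Col library left out, the median over members, no length correction and left-out members.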

Additional observations from a re-analysis of the deposited data

How the results depend on the processing

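No paired analysis was possible because each mutant has 1 library and nothing ties it to a particular Col library. With total-count scaling the median over all genes moved to 0.076 in atprmt3 and 0.14 in rps2a2b against Col, and the H3.1 sum stood at 0.93 and 0.83, and the H3.3 sum at 0.12 and 0.041, so the direction of the H3.3 sum in rps2a2b turned. In rps2a2b against atprmt3 the H3.3 sum was then -0.075. The median over members gave 0.95 for H3.1 and -0.024 for H3.3 in atprmt3, where H3.3 turned, -0.022 for H3.3 in rps2a2b, and -0.27 and -0.22 in rps2a2b against atprmt3, and ratio changes of 0.97 in atprmt3 and 0.70 in rps2a2b. Without AT5G65360, the H3.1 gene with most counts, the H3.1 sum was 0.97 in atprmt3 and 0.87 in rps2a2b. Without AT4G40040 the H3.3 sum was 0.13 in atprmt3, 0.069 in rps2a2b, where it turned, and -0.062 between the mutants. Without AT5G10980 the ratio change in atprmt3 was 0.95. These member removals were chosen after seeing the data. Without length correction the H3.1 share was 31.5% in atprmt3 and 31.1% in rps2a2b, against 20.7% in Col. With no filter on low counts, more weak genes entered, and 2981 genes were 2-fold higher and 2140 lower in atprmt3, 2157 lower in rps2a2b, and 2208 higher and 1957 lower in rps2a2b against atprmt3. Of 128 alternative values for single members, 122 stayed within the counting interval. For the main results, such as class sums and ratio changes, 121 alternative values were marked as the same and 33 as moved. For list medians these numbers were 150 and 42. The number of H3.1 genes 2-fold higher, 1 in each mutant, was 2 with upper-quartile factors and 3 with total counts in atprmt3, and 0 with DESeq2 size factors and 2 with total counts in rps2a2b, and ran from 0 to 3 in atprmt3 and from 0 to 1 in rps2a2b when a Col library was left out. The numbers of members 1.5-fold higher than Col, a threshold chosen after seeing the data, were the same under these alternatives and with no filter. Depth limits AT3G27360, which moved by up to 0.26 when a Col library was left out, and HTR11. Spread between plants of a genotype is unknown. For other moves than those from the filter, the cause was not tested.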
